A study of Homo sapiens with 2 samples.

Results

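The mitochondrial ribosomal protein genes are the nuclear genes whose symbols begin with MRPL, for the large subunit of the mitochondrial ribosome, or MRPS, for the small subunit. They were chosen by symbol alone, from array probe sets that the annotation gives to a single gene, and a gene with several probe sets took the brightest. This gave 74 genes of 18377 on the array. The symbol rule used no measured value apart from that brightness, but it was chosen with earlier results of these data known. Of the 74 genes, 48 encode large subunit proteins, 25 encode small subunit proteins and 1, MRPS31P5, is a pseudogene.

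The study compared cells of the established human myeloma line LP-1 with and without added HIF-2α. HIF-2α, the product of EPAS1, is a transcription factor subunit that oxygen destabilises. The HIF2A cells were infected with the vector pRUF-IRES-GFP carrying human HIF-2α, and the vector control cells carried pRUF-IRES-GFP without it. Each group is 1 stably transduced line measured on 1 array, and whether a line is a single clone is not stated in the labels. The signals are log2 values for 28869 probe sets, with a median of 4.0 in HIF2A cells and 4.02 in vector control cells. EPAS1 stood at 9.05 in HIF2A cells and at 3.70 in vector control cells, in the direction of the labels. All 8 plasma cell markers examined were above the olfactory receptor background in both arrays, with differences, HIF2A minus vector control, of 0.34 for XBP1, -0.29 for IRF4 and -0.25 for SDC1. SLAMF7 had 4.24 in HIF2A cells and 6.63 in vector control cells, a difference of -2.39. TNFRSF17 had 7.68 in HIF2A cells and 8.71 in vector control cells, a difference of -1.03. Of the markers of other cells, 1 of 3 for B cells, 0 of 3 for T cells, 1 of 3 for myeloid cells and 2 of 3 for stromal cells were above that background. With 1 array per group there is no replicate error, so no test across samples was possible, and every value below describes these 2 arrays.

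Mitochondria keep a small genome that encodes core subunits of the respiratory chain, and a dedicated ribosome translates them. Its RNAs come from the mitochondrial genome, but all of its proteins are encoded in the nucleus, made in the cytosol and imported. The large subunit joins amino acids and passes the new chain through an exit tunnel to the inner membrane, and the small subunit binds the messenger RNA and decodes it. HIF factors are known in other cells for lowering mitochondrial respiration when oxygen is short.

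As a group the mitochondrial ribosomal protein genes differed little between the 2 lines. All 73 genes that encode a protein were above the background set by olfactory receptor genes in both arrays, with signals from 4.48 to 9.72 in the HIF2A array and from 4.51 to 9.57 in the vector control array. They also passed the filter of 4.01 on the brighter array. The dimmest was MRPL13, at 4.48 in HIF2A cells and 4.51 in vector control cells. The pseudogene MRPS31P5 lay below the filter, at 3.85 and 3.72 in the same order, and was left out of what follows.

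Over the 73 genes the differences, HIF2A minus vector control, had a median of -0.06 on the log2 scale, beside 0.03 over all 11469 genes past the filter. Of the 73 genes 30 were higher in the HIF2A array, 42 were lower and 1, MRPL54, had the same signal in both. That is 57.5% lower, beside 46.1% of all genes. Genes of similar brightness, the 2797 within the middle range of the members' mean signal, had a median of 0.04 with 45.2% lower. The differences were somewhat tighter than those of other genes, with a scaled median absolute deviation of 0.28 for the members and 0.34 for all genes.

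A difference of at least 1.5-fold was counted as a call. Calls in the lower direction were 6 members, or 8.22%, beside 4.76% of all genes. Calls in the higher direction were 2 members, or 2.74%, beside 5.67% of all genes. At 2-fold the members held 2 lower genes, or 2.74% beside 0.732% of all genes, and 0 higher ones, beside 0.706% of all genes. With the limit lowered to a ratio of 5 to 4, 15 members were lower, or 20.5% beside 15.4% of all genes, and 5 were higher, or 6.85% beside 19.6%. The counts at 1.5-fold and 2-fold rest on at most 6 genes each, and 89.0% of the members stayed within 1.5-fold, as did 89.6% of all genes.

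**Figure D1:**
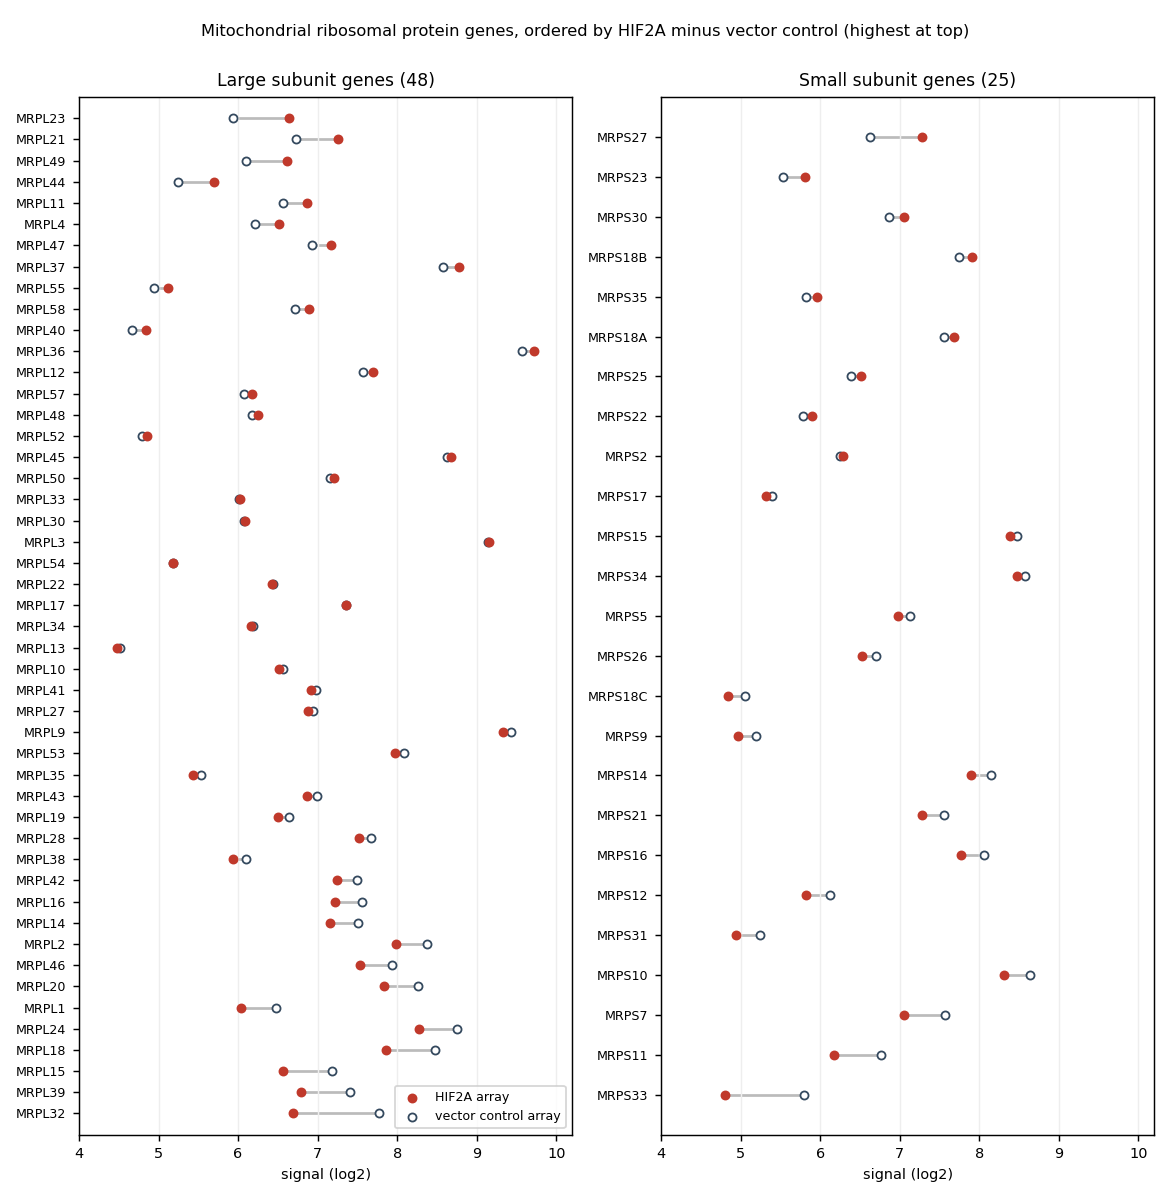
Signal (log2) of each of 48 large subunit genes (left) and 25 small subunit genes (right), 1 point for the HIF2A array (filled) and 1 for the vector control array (open), ordered by the difference. Most pairs of points lie close together, and MRPL32 and MRPS33 at the bottom are the widest apart.

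Large and small subunit genes were set side by side. The 48 large subunit genes showed 21 higher and 26 lower members around a median difference of -0.02. The 25 small subunit genes showed 9 higher and 16 lower around a median of -0.15, and the large subunit median was thus 0.13 above that of the small subunit. At least 1.5-fold lower were 4 large subunit genes, or 8.33%, and 2 small subunit genes, or 8%, beside 4.76% of all genes. At least 1.5-fold higher was 1 gene of each subunit, 2.08% of the large and 4% of the small, beside 5.67% of all genes. The gap between the subunit medians is smaller than the scaled median absolute deviation within either subunit, 0.24 for the large and 0.27 for the small. Symbols do not always match the position of the protein. MRPS30 and MRPS18A carry small subunit symbols, yet structures of the ribosome place both proteins in the large subunit. With these counted there, a choice made after seeing the data, the medians were -0.01 for the large and -0.17 for the small subunit.

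Among large subunit genes, MRPL32 differed most. It encodes a protein with a bacterial relative that the m-AAA protease must trim before it joins the ribosome. It measured 6.69 in HIF2A cells and 7.77 in vector control cells, a difference of -1.08 or 2.11-fold lower. MRPL39 encodes a mitochondria-specific protein and had 6.79 in HIF2A cells and 7.41 in vector control cells. MRPL18, whose protein sits in the central protuberance on top of the subunit, had 7.86 in HIF2A cells and 8.47 in vector control cells. MRPL15 had 6.57 in HIF2A cells and 7.18 in vector control cells. These 4 genes are the large subunit genes at least 1.5-fold lower, and the last 3 lie close to that limit, with differences of -0.62, -0.61 and -0.61. With 32 added on the linear scale these 3 fell short of it, at -0.50, -0.55 and -0.48 in the same order. With the median of its 20 nearest measured genes subtracted, MRPL15 also fell short, at -0.42.

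Just inside 1.5-fold came MRPL24, whose protein belongs to a family at the rim of the exit tunnel. It had 8.27 in HIF2A cells and 8.75 in vector control cells, a difference of -0.48. MRPL1 had a difference of -0.44. MRPL20, of a family that binds ribosomal RNA early in assembly in bacteria, had one of -0.43. MRPL46, a protein of the central protuberance, had -0.41. The next lower large subunit genes were MRPL2 at -0.38, MRPL14 at -0.36 and MRPL16 at -0.34, so the lower side falls off gradually rather than in a separate group.

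On the higher side, MRPL23 led. Its protein belongs to the family at the exit tunnel that contacts targeting and insertion factors in bacteria. It had 6.64 in HIF2A cells and 5.94 in vector control cells, a difference of 0.70 or 1.62-fold. MRPL21 had 7.26 in HIF2A cells and 6.73 in vector control cells, and MRPL49 had 6.62 and 6.10 in the same order. MRPL44, which encodes a protein with a ribonuclease III fold and is a gene of inherited mitochondrial cardiomyopathy, had 5.70 in HIF2A cells and 5.25 in vector control cells. These 3 were higher by 0.53, 0.52 and 0.45, less than 1.5-fold. MRPL11 and MRPL4 were each higher by 0.30, MRPL47 by 0.24 and MRPL37 by 0.19.

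Within the large subunit, the genes of neighbouring proteins differed in both directions. The lists used for these regions may be incomplete, and the counts hold for the listed genes only. The 8 genes listed for the central protuberance had 4 higher and 4 lower, from -0.61 for MRPL18 to 0.18 for MRPL55. Their median difference was 0. The 8 listed for the exit tunnel had a median of 0.025, again with 4 higher and 4 lower. They hold both MRPL23 at 0.70 and MRPL39 at -0.62. The 5 genes listed for the stalk, which recruits the translation factors, stayed between -0.11 and 0.30. Among them MRPL12, the stalk protein itself, was at 7.70 in HIF2A cells and 7.57 in vector control cells. MRPL58, a peptidyl-tRNA hydrolase built into the subunit that releases stalled chains, is in none of these lists. It had 6.89 in HIF2A cells and 6.71 in vector control cells.

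Among small subunit genes, MRPS33 had the lowest difference. It encodes a mitochondria-specific protein of the subunit. It measured 4.80 in HIF2A cells and 5.80 in vector control cells, a difference of -1.0 or 2.0-fold lower. MRPS33 fell short of 2-fold after median centring, at -0.98, and of 1.5-fold with 32 added on the linear scale, at -0.55. MRPS11, with a bacterial relative on the platform of the subunit, had 6.17 in HIF2A cells and 6.76 in vector control cells. These 2 are the small subunit genes at least 1.5-fold lower. MRPS11, at -0.59, lies at the limit of 0.585 and fell short of it after median centring, at -0.57, with 32 added on the linear scale, at -0.43, and less its neighbours, at -0.535. MRPS7, of the family that organises the head of the small subunit, had 7.05 in HIF2A cells and 7.57 in vector control cells, a difference of -0.52. Less its neighbours MRPS7 stood at -0.645, past 1.5-fold. MRPS10 at -0.33, MRPS31 at -0.31, MRPS12 at -0.30, MRPS16 at -0.29 and MRPS21 at -0.27 followed. MRPS12 belongs to the family at the decoding centre.

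MRPS27 was the only small subunit gene at least 1.5-fold higher. It encodes an RNA-binding protein with pentatricopeptide repeats, a motif that reads RNA. It had 7.28 in HIF2A cells and 6.62 in vector control cells, a difference of 0.66 or 1.58-fold. MRPS23 followed with 5.81 in HIF2A cells and 5.53 in vector control cells. MRPS30, MRPS18B, MRPS35, MRPS18A, MRPS25 and MRPS22 were higher by 0.11 to 0.19. The 3 MRPS18 paralogs, related proteins of 1 bacterial family, differed in direction. MRPS18B and MRPS18A were higher by 0.17 and 0.13, and MRPS18C had a difference of -0.21. The 10 measured members of a list of genes with recessive variants in mitochondrial disease had a median of 0.025, from -0.52 for MRPS7 to 0.45 for MRPL44.

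The genes were also split by their numbers, and the medians of the 2 classes differed by -0.18, a wider gap than that between the subunits. Large subunit proteins up to number 36 and small subunit proteins up to number 21 were named after bacterial counterparts, and higher numbers were given to proteins without an evident one at the time. The numbers are an imperfect guide, since MRPL47, for example, was later assigned to a bacterial family. Of the 43 genes with bacterial numbers, 31 were lower in the HIF2A array and 12 higher, with a median difference of -0.11. Of the 30 genes with higher numbers, 11 were lower and 18 higher, with a median of 0.07. Lower genes thus made up 72.1% of the first class and 36.7% of the second, beside 46.1% of all genes past the filter. The gap between the class medians is also smaller than the scaled median absolute deviation within either class. That deviation was 0.27 for bacterial numbers and 0.22 for higher numbers.

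The direction was the same within each subunit. In the large subunit the median was -0.055 over 28 genes with bacterial numbers and 0.06 over 20 with higher numbers. In the small subunit it was -0.22 over 15 genes with bacterial numbers, of which 12 were lower, and 0.115 over 10 with higher numbers. Among the genes with higher numbers the large subunit median lay below that of the small subunit by a difference of -0.055, whereas among those with bacterial numbers it lay 0.165 above. The classes overlap widely. MRPL23, the gene with the highest difference, has a bacterial number, and MRPS33, at -1.0, has a higher one.

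**Figure D2:**
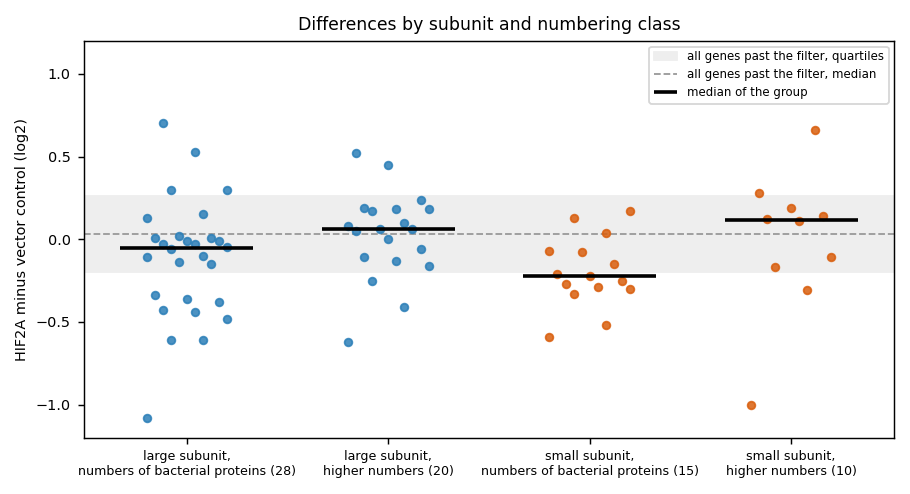
Difference (log2, HIF2A minus vector control) of each of the 73 genes, grouped by subunit and by numbering class, with the median of each group as a black bar and the quartiles and median of all 11469 genes as a grey band and dashed line. Small subunit genes with bacterial numbers lie lowest, with a median of -0.22, and the 4 groups overlap.

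Position on the chromosomes was examined because neighbouring genes differed together in some regions of these 2 arrays. The median difference of the 20 nearest measured genes was at least 0.2 in either direction for 10 members, and 7 of the 10 differed in the direction of their neighbours, beside 66.6% of the 1529 genes past the filter with such neighbours. MRPL32 and MRPS33, the 2 genes at least 2-fold lower, both lie on chromosome 7, where the median of all 521 genes was -0.17. The neighbours of MRPL32 had a median of -0.36 and those of MRPS33 one of -0.205. Less those medians, MRPL32 stood at -0.72 and MRPS33 at -0.795, so both remained at least 1.5-fold lower and neither 2-fold. The part of the neighbourhood in these differences was not tested.

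MRPL13 and MRPS17 also had lower neighbours, with medians of -0.255 and -0.235, and differed by -0.03 and -0.07. MRPL22 stood out on the other side. Its neighbours on chromosome 5 had a median of 0.475, while its own signals were 6.43 in HIF2A cells and 6.44 in vector control cells. MRPS14 had neighbours with a median of 0.22 on chromosome 1 and was itself lower, at 7.90 in HIF2A cells and 8.15 in vector control cells. MRPL17 had a difference of -0.01 among neighbours with a median of 0.285. These 3 are the members that did not share the direction of shifted neighbours. MRPS27, also on chromosome 5, was higher among neighbours with a median of 0.03, and MRPL23 was higher among neighbours with one of -0.13.

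Members on the same chromosome can be read against that chromosome. Of the chromosomes with at least 6 members, chromosomes 11 and 6 had the members' medians furthest from 0 and are described here. Chromosomes 1, 2 and 17 hold 8 members each. Their members had medians of -0.175, -0.11 and 0.005, beside 0.05, 0.01 and 0.03 over all genes of those chromosomes. On chromosome 11 the 7 members had a median of 0.30, beside 0.16 over its 724 genes, with MRPL23, MRPL21, MRPL49, MRPL11 and MRPL48 higher. MRPL17 and MRPL16 were at -0.01 and -0.34. On chromosome 6 the 6 members had a median of -0.345, beside 0 over its 547 genes. There MRPL18, MRPL2, MRPL14 and MRPS10 were lower, and MRPS18A and MRPS18B higher.

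**Figure D3:**
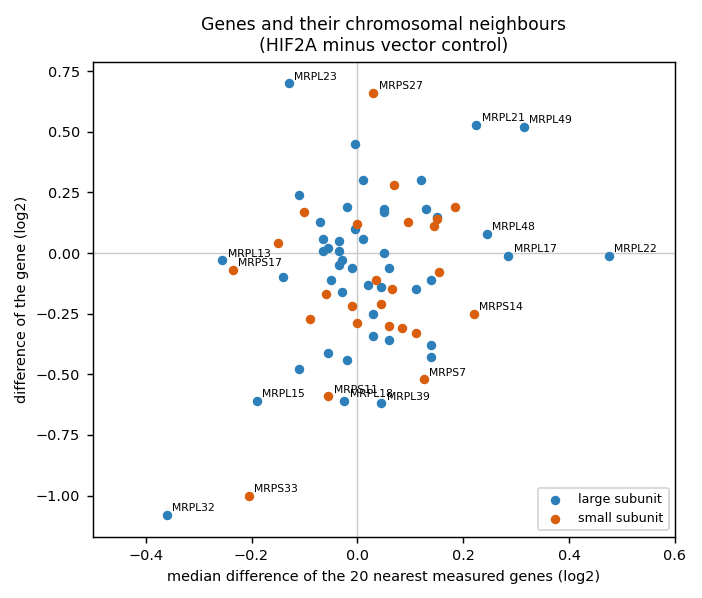
Difference (log2, HIF2A minus vector control) of each of the 73 genes against the median difference of its 20 nearest measured genes, coloured by subunit. MRPL32 and MRPS33 lie at the lower left among lower neighbours, MRPL22 at the far right has a difference of -0.01, and MRPL23 and MRPS27 are high among neighbours near 0.

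Many genes of this family start back to back with another gene, so that a single stretch of DNA lies upstream of both. In the RefSeq promoter table of GRCh38.p14, 17 such divergent pairs with starts at most 1000 bases apart held a member and had both genes past the filter. This search was chosen after seeing the data. In 9 of the 17 pairs, or 52.9%, both genes differed in the same direction, beside 51.3% of 608 divergent pairs among all genes, a share near that of divergent pairs in general. Pairs in which a gene had no difference, such as MRPL54 with APBA3, were counted as not agreeing.

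Among the pairs with the same direction were the following 4, picked after their values were seen. MRPL32 shares its upstream region with PSMA2, which encodes a proteasome core subunit and had 6.49 in HIF2A cells and 7.44 in vector control cells, a difference of -0.95. MRPL46 and MRPS11, 1 gene of each subunit, start 320 bases apart and were both lower, by differences of -0.41 and -0.59. MRPS27 faces PTCD2, a further pentatricopeptide repeat gene of mitochondrial RNA metabolism, which was higher by 0.57. MRPL49 faces FAU, which encodes ribosomal protein S30 of the cytosolic ribosome fused to a ubiquitin-like protein. FAU had 8.49 in HIF2A cells and 7.62 in vector control cells, a difference of 0.87.

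Other pairs parted. MRPL18 was lower beside TCP1, a chaperonin subunit gene with 10.15 in HIF2A cells and 10.06 in vector control cells. MRPS7 was lower beside the Golgi adaptor gene GGA3, at 0.15, and MRPL14 beside the ion channel gene TMEM63B, at 0.29. MRPS18C had a difference of -0.21. Its partner HELQ, a helicase gene whose start lies 175 bases away, had 4.28 in HIF2A cells and 3.42 in vector control cells, where it was not above the background of 3.58. HELQ passed the filter through the HIF2A array alone, and its signal there is given as at least 1.62-fold higher. Without that pair 9 of 16 pairs, or 56.2%, had the same direction, beside 51.2% of the 602 pairs with both genes above background in both arrays. In contrast, MRPS12 and SARS2, the mitochondrial seryl-tRNA synthetase gene, were both lower, at -0.30 and -0.06. They count among the pairs with the same direction.

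**Figure D4:**
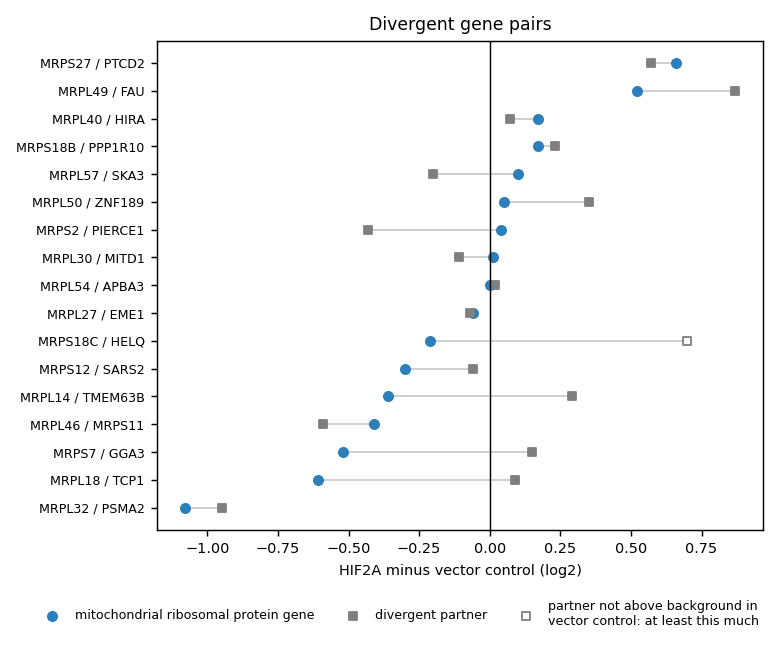
Differences (log2, HIF2A minus vector control) of 17 mitochondrial ribosomal protein genes (circles) and their divergent partners (squares), joined by lines; MRPS11 is shown as the partner of MRPL46. PSMA2, MRPS11, FAU and PTCD2 lie on the side of their partners, while TCP1, GGA3 and TMEM63B lie opposite. The open square of HELQ is a lower bound.

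The upstream stretches of 5 pairs are shown to let the 4 named above with the same direction be read beside 1 that parted, MRPL18 and TCP1. They are the bases between the 2 starts, or the 250 bases before MRPL46 where its gap is longer, 5′ to 3′ on the strand of the member, from RefSeq with the build GRCh38.p14. They lie at chr7:42932175-42932375, plus strand, for MRPL32, at chr15:88467389-88467638, minus strand, for MRPL46, at chr5:72320241-72320372, minus strand, for MRPS27, at chr11:65122135-65122182, plus strand, for MRPL49, and at chr6:159789603-159789811, plus strand, for MRPL18. Capitals mark matches on either strand to the core of the hypoxia response element (ACGTG or GCGTG), the E box (CACGTG, which holds ACGTG), and short cores for NRF1 (GCATGCGC), ETS factors such as GABPA (CCGGAAG) and YY1 (AAGATGGCG).
MRPL32 and PSMA2: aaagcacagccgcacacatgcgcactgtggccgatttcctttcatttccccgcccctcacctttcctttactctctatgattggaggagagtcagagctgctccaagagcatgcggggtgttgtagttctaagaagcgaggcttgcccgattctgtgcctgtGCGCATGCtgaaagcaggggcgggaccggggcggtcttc
MRPL46 and MRPS11: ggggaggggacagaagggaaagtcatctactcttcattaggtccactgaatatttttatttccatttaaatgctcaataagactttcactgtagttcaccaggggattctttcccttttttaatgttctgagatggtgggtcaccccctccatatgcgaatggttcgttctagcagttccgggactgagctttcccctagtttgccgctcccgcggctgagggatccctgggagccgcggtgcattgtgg
MRPS27 and PTCD2: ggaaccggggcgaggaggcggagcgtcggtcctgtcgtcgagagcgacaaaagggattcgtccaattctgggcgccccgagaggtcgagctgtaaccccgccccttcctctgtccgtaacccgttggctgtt
MRPL49 and FAU: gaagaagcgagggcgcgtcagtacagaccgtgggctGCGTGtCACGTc
MRPL18 and TCP1: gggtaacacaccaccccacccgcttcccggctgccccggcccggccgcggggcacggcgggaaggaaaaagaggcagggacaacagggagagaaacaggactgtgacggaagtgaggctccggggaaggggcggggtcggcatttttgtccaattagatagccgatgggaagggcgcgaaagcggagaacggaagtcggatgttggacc

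The MRPL32 stretch holds 1 NRF1 core, which begins 39 bases before the MRPL32 start. The MRPL49 stretch holds 2 hypoxia response cores, the nearer beginning 6 bases before the MRPL49 start. The neighbours of MRPL49 had a median of 0.315, which leaves 0.205 of its difference of 0.52. The other 3 stretches, which include both lower and higher genes, show no match to these letters. NRF1 and GABPA are known regulators of nuclear genes for mitochondria. A match to any of these letters, the hypoxia response core included, does not show binding, and the part of HIF-2α binding in any difference was not tested.

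Over the whole family, 66 of the 73 genes had a promoter window, of 300 bases each, and 82 windows in all because some genes have several starts. The ETS core stood in 39.0% of these windows, beside 10.3% of all 35116 windows in the table. The YY1 core stood in 14.6% beside 1.75%, the NRF1 core in 7.32% beside 3.05%, the E box in 11% beside 7.26% and the hypoxia response core in 67.1% beside 48.4%. The table also holds windows of noncoding genes, and the median share of G and C was 60.2% in the members' windows and 58.7% in all. The 45 members with a hypoxia response core had a median difference of -0.06, and so did the 21 without one.

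Some further probes of the family fall outside the rule. The annotation gives 4 probe sets to a mitochondrial ribosomal protein gene together with another gene, and all 4 were lower in the HIF2A array. The probe set of MRPS28 and TPD52 had 6.80 in HIF2A cells and 7.53 in vector control cells. That of MRPS24, shared with a readthrough transcript, had 6.91 and 7.46 in the same order. The probe set of MRPL51 and SPTLC1 differed by -0.49 and that of MRPS6 and SLC5A3 by -0.30. These signals cannot be assigned to 1 gene. MRPL20 has 2 probe sets and MRPS18B has 3, each with identical signals, so neither gives a second measurement.

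Of 4 proteins of the ribosome with other symbols, 3 were lower. CHCHD1 had 6.38 in HIF2A cells and 6.84 in vector control cells, and DAP3, a GTP-binding small subunit protein also known from cell death studies, had 8.50 and 8.79 in the same order. PTCD3 differed by -0.11, and the large subunit gene GADD45GIP1 by 0.36.

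The other genes of mitochondrial translation went both ways. Among 15 translation factors and activators past the filter, 9 were higher and 6 lower, with a median difference of 0.17. None was at 1.5-fold, beside 5.67% of all genes higher and 4.76% lower, shares that leave few calls for 15 genes. LRPPRC, which stabilises mitochondrial messenger RNAs, had 9.17 in HIF2A cells and 8.68 in vector control cells, whereas its partner SLIRP had 10.11 and 10.48 in the same order. OXA1L, the insertase that receives new chains at the exit tunnel, was higher by 0.45. MTIF3, an initiation factor, had a difference of -0.54, and TUFM, the elongation factor, one of 0.17.

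Among 25 assembly factors, 13 were higher and 12 lower, with a median of 0.01. The GTPase gene MTG2 was higher by 0.64, at 7.08 in HIF2A cells and 6.44 in vector control cells. It was the only 1 of the 25 at 1.5-fold, beside 5.67% of all genes higher and 4.76% lower. NOA1 was higher by 0.41 and NSUN4, an RNA methyltransferase gene, by 0.37. The RNA helicase gene DDX28, the binding factor RBFA and the methyltransferase gene MRM2 had -0.54, -0.48 and -0.43. The 11 genes of mitochondrial transcription and its nuclear regulators had a median of 0.11, from -0.26 for NRF1 to 0.32 for TFB2M. TFAM, which packages the mitochondrial genome and acts in its transcription, was at 7.23 in HIF2A cells and 7.39 in vector control cells.

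Beside other ribosome and respiratory genes, the mitochondrial ribosomal protein genes lay near the respiratory chain and below the cytosolic ribosome. Their median of -0.06 compares with -0.01 over 76 nuclear respiratory chain genes, of which 37 were higher and 39 lower. The 61 cytosolic ribosomal protein genes, of which 46 were higher and 15 lower, had a median of 0.27. Past the 1.5-fold limit, 2 of the 73 mitochondrial genes and 9 of the 61 cytosolic genes were higher, beside 5.67% of all genes. In the other direction 6 mitochondrial and 2 cytosolic genes passed it, beside 4.76% of all genes. In RefSeq 38 of the 73 members have at least 1 named pseudogene, and these had a median of -0.075, against -0.05 for the 35 without. Cross-hybridization was not analysed here.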

How the data were processed

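RNA of 1 HIF2A and 1 vector control LP-1 line was measured on whole-transcript Affymetrix arrays. The deposited table holds log2 signals for single probe sets. Per the submitters' processing notes the authors made them with Affymetrix Expression Console. Neither its algorithm nor any background correction or centring is stated in the labels. Base 2 was inferred because the top value, 13.97, could not be a natural log of a 16-bit reading, whose limit is 11.09.

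Of 28869 probe sets, 19310 carry 1 gene symbol, 1752 several and 7807 none listed here. Each gene took its probe set with the highest mean, and was kept if the brighter of its signals was at least 4.01, the median of probe set means. All 74 members were matched by Entrez number to RefSeq (GRCh38.p14), used for names, gene order and promoter windows of 250 bases before to 50 after a start. The background is the 95th percentile of 339 olfactory receptor genes, 3.58 in both arrays. Members and lists were chosen with earlier results of these data known. Named by rule were the 8 highest and 8 lowest members of each subunit, structural lists, repeated probe sets, members with shifted neighbours, and up to 3 genes in each direction of other lists. CHCHD1, PTCD3, TUFM, TFAM and the partners of divergent pairs were named after their values were seen. No test across samples was possible with 1 array per group, and that number limits the precision.

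Alternatives were quantile, median and loess scaling (span 0.3), 32 added on the linear scale, filters at the 25th and 75th percentiles or none, other probe set rules, other folds, 20 neighbours subtracted and other memberships. The code was tested on simulated data. Tools were matplotlib 3.10.9, statsmodels 0.14.6, pandas 2.3.3, numpy 2.4.6 and Python 3.11.15.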

Additional observations from a re-analysis of the deposited data

How the results depend on the processing

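The median of the 73 genes stayed between -0.09 and -0.04 in every setting run, that of the small subunit between -0.19 and -0.10, and that of the large subunit between -0.055 and 0. The gap between the subunits was 0.13 in the values reported, 0.06 with the filter at the 75th percentile, which leaves 64 genes, and 0.16 with MRPS30 and MRPS18A in the large subunit. The gap between the numbering classes stayed between -0.2075 and -0.15. With 32 added to each linear value, which by construction shrinks differences of dim genes, the calls at 1.5-fold came to 0 higher and 1 lower. The share of all genes called in that setting is not given, so these counts are not read as a result about the members. Without the 32 added, a ratio of 5 to 4 gave 5 higher and 15 lower members, beside 19.6% and 15.4% of all genes. At 2-fold there were 0 and 2, beside 0.706% and 0.732% of all genes. After loess centring 64.7% of the 17 divergent pairs with a member agreed in direction. The share of all divergent pairs in that setting is not given, so the value has no background beside it. In the values reported the shares were 52.9% with a member and 51.3% of all pairs. The 4 shared probe sets, the divergent pairs in all settings, the other settings of the numbering class gap and the place of MRPS30 and MRPS18A were added after seeing the data. Of 511 values of single members in other settings 3 moved by at least the scaled median absolute deviation of all differences. MRPL22 and MRPL32 came to -0.485 and -0.72 less their neighbours, and MRPS33 to -0.55 with 32 added. The probe set settings could move no member, since repeated probe sets have identical signals. No filter, the filter at the 25th percentile and keeping pseudogenes left the same 73 genes, so the members' medians could not change. Median centring shifts all genes of an array equally, so it could change neither gap. No paired analysis was possible because each group has 1 array, and for the same reason no replicate could be left out.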
